A study of Mus musculus with 4 samples.

Results

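The Th2 cytokine locus and the genes linked to it on mouse chromosome 11 were read as a set of 9 genes of the 18749 genes named on the arrays. The set was chosen by name and position and not by any measured value. It holds 5 cytokine genes, Il4, Il13, Il5, Csf2 and Il3, and 4 genes that lie between or beside them, Kif3a, Rad50, Slc22a5 and P4ha2. They are read by 11 of the 41173 probes, printed as 29 spots on each array.

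The RNA of 4 cultures, 1 per condition, was hybridised to Agilent arrays of the mouse transcriptome with a single dye. The cells were naive CD4 T cells (CD44low CD62Lhigh CD25neg) from the spleens of C57BL/6J mice, labelled female and, per the methods of the study, 8 to 12 weeks old. The Bach2 KO (Bach2-deficient) cells came from Bach2flox/flox mice that carry the CD4-Cre transgene, in which the Cd4 promoter drives Cre in T lineage cells. The paper calls its WT controls CD4-Cre mice where it compares lungs, and whether the WT cells on the arrays carry the transgene was not given in the sources used here. All 4 cultures were primed for 2 days by plate-bound antibody to TCR-β at 3 μg/ml together with antibody to CD28 at 1 μg/ml and then kept with IL-2 for 3 days, at 2.5 ng/ml in the labels and 10 ng/ml in the methods. For each genotype, 1 array holds cells before re-stimulation and 1 holds cells after 4 h on the anti-TCR-β mAb without exogenous IL-2. Whether mice were pooled was not given in the sources used here. With 1 array per condition no difference has a replicate check and no test was made.

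In the T helper 2 lineage, Il4, Il13 and Il5 lie close together with Rad50, whose introns hold the locus control region through which these 3 genes are regulated jointly. Csf2 and Il3 lie apart from them on the same chromosome and are induced by TCR signalling in T helper cells of several lineages. Bach2 is a repressor of the bZIP family that shares DNA sites with AP-1 factors such as Batf, and the study asked how its loss affects Th2 cytokines.

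Along chromosome 11 of the RefSeq assembly GRCm38.p6, the order of the 9 genes is Kif3a, Il4, Il13, Rad50, Il5, Slc22a5, P4ha2, Csf2 and Il3. Irf1 lies between Il5 and Slc22a5, and Pdlim4 lies between Slc22a5 and P4ha2. RefSeq promoter sequences of that assembly were found for 8 of the 9 genes, with Rad50 missing, and Il4 had 2 starts. The 250 bases before the first start of each cytokine gene are shown because they are the nearest regulatory sequence to the transcripts measured. They are written 5′ to 3′ on the strand of the gene. Capitals mark exact matches on either strand to the GATA form AGATAA, its variant that ends in G (AGATAG), the same pair with T as the first base (TGATAA and, ending in G, TGATAG), and the NFAT core GGAAA, and the AP-1 consensus TGAGTCA was searched in the same way. None of these motifs contains another.
Il4 (chr11:53618666-53618915, minus strand): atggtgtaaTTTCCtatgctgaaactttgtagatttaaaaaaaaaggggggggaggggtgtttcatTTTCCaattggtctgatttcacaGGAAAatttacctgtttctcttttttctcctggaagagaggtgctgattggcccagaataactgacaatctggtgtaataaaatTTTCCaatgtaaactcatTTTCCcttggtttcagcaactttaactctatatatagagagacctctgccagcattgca
Il13 (chr11:53634703-53634952, minus strand): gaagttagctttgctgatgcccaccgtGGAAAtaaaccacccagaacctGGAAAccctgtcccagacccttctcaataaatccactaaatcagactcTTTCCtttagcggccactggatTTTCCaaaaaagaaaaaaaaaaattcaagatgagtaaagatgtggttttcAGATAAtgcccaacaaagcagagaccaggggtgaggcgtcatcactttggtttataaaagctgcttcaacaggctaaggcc
Il5 (chr11:53720544-53720793, plus strand): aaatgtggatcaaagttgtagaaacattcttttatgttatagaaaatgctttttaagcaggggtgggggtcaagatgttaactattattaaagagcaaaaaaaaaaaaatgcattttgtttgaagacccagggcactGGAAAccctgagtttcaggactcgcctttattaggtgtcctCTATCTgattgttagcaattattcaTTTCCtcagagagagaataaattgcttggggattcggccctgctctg
Csf2 (chr11:54249900-54250149, minus strand): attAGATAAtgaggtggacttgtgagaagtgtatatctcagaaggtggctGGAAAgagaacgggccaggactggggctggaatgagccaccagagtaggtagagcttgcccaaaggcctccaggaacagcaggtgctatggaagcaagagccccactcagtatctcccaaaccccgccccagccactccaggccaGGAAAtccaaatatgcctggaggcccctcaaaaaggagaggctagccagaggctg
Il3 (chr11:54267280-54267529, minus strand): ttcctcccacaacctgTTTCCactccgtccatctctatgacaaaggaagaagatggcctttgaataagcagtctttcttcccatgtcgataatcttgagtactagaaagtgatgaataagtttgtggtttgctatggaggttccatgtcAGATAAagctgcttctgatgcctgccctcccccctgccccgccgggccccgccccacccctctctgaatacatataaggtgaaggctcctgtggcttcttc

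The window before the first Il4 start held 5 matches to the NFAT core, and 0.390% of the 32851 promoters in the RefSeq table held as many. The Il13 window held 4, at 223, 201, 153 and 131 bases before the start. The Il5 and Csf2 windows held 2 each and the Il3 window held 1, while 55.6% of all promoters held at least 1. A GATA form stood at 81 bases before the Il13 start, 72 before Il5, 247 before Csf2 and 101 before Il3, and 26.5% of all promoters held one. The first Il4 window held 0 GATA forms and the window of its second start held 1. The AP-1 consensus had 0 matches in all 9 windows, and 4.46% of all promoters held it. The window of the second Il4 start, not printed above, does hold the Il4 intron enhancer oligonucleotide of the paper, on the opposite strand. By ChIP the paper reports Bach2 at that enhancer, whereas its pull-down with the oligonucleotide found relatively weak Bach2 and Batf binding. It proposes that a Th2-specific chromatin structure is needed there. A lack of exact matches therefore does not settle whether Bach2 binds. Among the linked genes, Kif3a held 1 NFAT core, and Slc22a5 and P4ha2 held none of the motifs. These matches describe the letters in short windows and not the binding of any factor.

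Signals below are background-corrected intensities of the scanner. A probe counts as measured on an array where the scanner software flags it well above background, and the lowest such signals were between 14.5 and 17.2. Between 53.6% and 54.0% of probes were measured on each array, no spot was saturated, and all arrays shared 1 slide and 1 scan. A difference is the log2 value of one array minus that of another, each taken relative to the 75th percentile of its own signals, which was 436 and 434 for WT and Bach2 KO before re-stimulation and 313 and 353 after it. A raw ratio of signals therefore departs from the fold given. Where 1 of 2 arrays was not measured, its value was raised to the lowest measured signal of that array and the fold is a lower bound. Past 2-fold is a rule of size and not a test. For scale, the log2 differences of probes of the same gene had a median SD of 0.0885 before and 0.110 after re-stimulation between genotypes, and of 0.151 in WT and 0.140 in Bach2 KO between time points. This is spread within arrays only and holds nothing of the spread between mice or cultures.

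**Figure D1:**
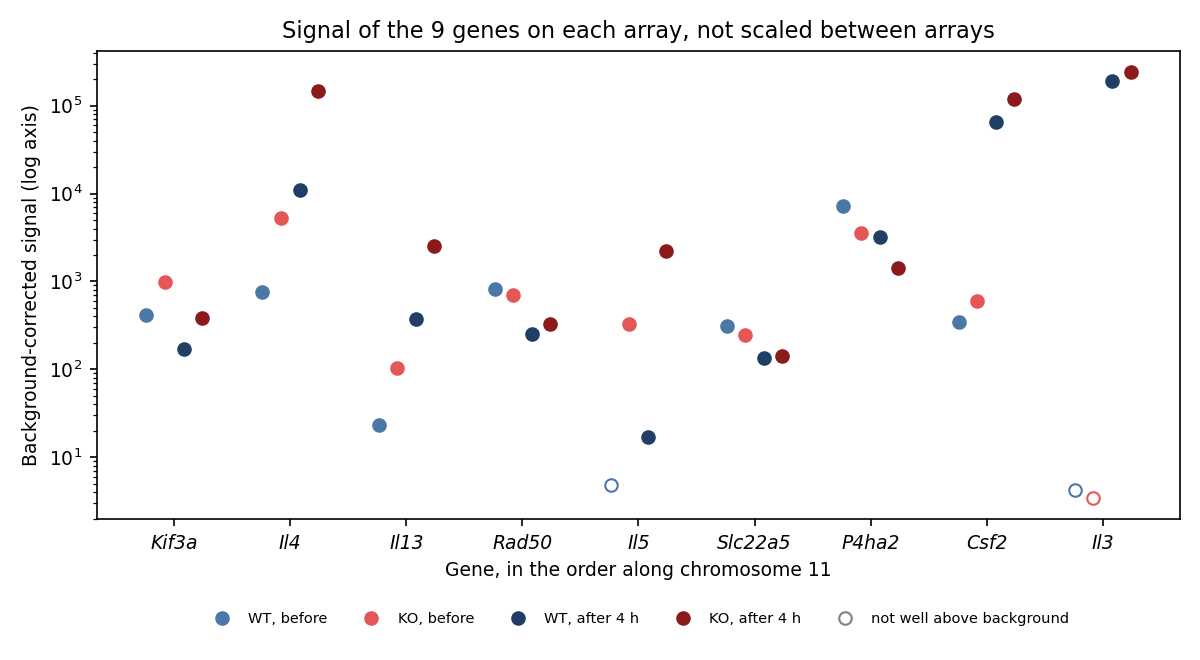
Background-corrected signal (log axis, not scaled between arrays) of the 9 genes on the 4 arrays. Open points are not well above background, and all other points are. Il4 spans 752 on the WT array before re-stimulation to 148258 on the Bach2 KO array after it, and levels of different genes are not comparable because their probes differ.

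Of the 9 genes, 4 were higher past 2-fold on the Bach2 KO array than on the WT array before re-stimulation, Il4, Il5, Il13 and Kif3a, and the same 4 were so after it. Kif3a lay at the edge of the rule after re-stimulation and was short of it with median scaling (0.98), normexp background correction (0.87) and averaged probes (0.89), which left 3. 1 gene, P4ha2, was lower past 2-fold at both times. Before re-stimulation 8 of the 9 were measured, and 5.27% of 12105 genes were higher and 2.83% lower past 2-fold. After it all 9 were measured, and 5.17% of 12341 genes were higher and 3.86% lower. The 3 clustered Th2 cytokine genes thus stood on 1 side, whereas Rad50, which lies among them, did not pass 2-fold in either direction between genotypes. Before re-stimulation, Il13 was short of 2-fold with normexp (0.84). At that time Il5 had no value when both arrays had to be well above background.

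Il4 encodes the cytokine that drives Th2 differentiation through its own receptor and STAT6. Its probe (transcript NM_021283) gave a signal of 752 in WT and 5239 in Bach2 KO cells before re-stimulation, then 10876 and 148258 after it. The Bach2 KO array was the higher of the pair at both times, and the WT array after re-stimulation was above the KO array before it. The log2 difference between genotypes was 2.81 (7-fold) before and 3.59 (12.1-fold) after re-stimulation. As high a difference was reached by 87 of 12105 genes before and 48 of 12341 genes after it, Il4 included.

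The Il4 probe is printed as 10 spots per array, so its technical error can be read. The SE of the difference over spots was 0.021 before and 0.033 after re-stimulation, and the 10 spots of one array lay apart from those of every other array. The smallest and largest difference between any spot of one genotype and any of the other were 2.65 and 2.98 before, and 3.33 and 3.88 after re-stimulation. This is the precision of printing and scanning of 1 RNA per condition.

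Il13, which encodes a cytokine that acts on airway epithelium and macrophages, is the neighbour of Il4. Its probe (NM_008355) gave 23.2 in WT and 104 in Bach2 KO cells before re-stimulation, then 372 and 2530 after it. The order of the 4 arrays was the same as for Il4. The log2 difference between genotypes was 2.16 (4.48-fold) before and 2.59 (6.03-fold) after re-stimulation. The WT signal before re-stimulation was close to the lowest measured signal of that array, 15.1. With normexp background correction and an offset of 50, the difference before re-stimulation was 0.84 and no longer past 2-fold.

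Il5, which encodes the growth and survival factor of eosinophils, lies on the far side of Rad50. Its probe (NM_010558) gave 4.81 in WT, which was not well above background, and 329 in Bach2 KO cells before re-stimulation, then 16.8 and 2200 after it. The gene was thus measured in Bach2 KO cells at both times and in WT cells only after re-stimulation, just above the lowest measured signal of 14.5. The difference was at least 21.8-fold before re-stimulation, a log2 bound of 4.45. After it the log2 difference was 6.86 (116-fold), the highest of 12341 genes with this scaling. Because the WT signal lay near the limit, its size depended on the treatment of background, and normexp gave 2.34 before and 4.93 after re-stimulation.

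**Figure D2:**
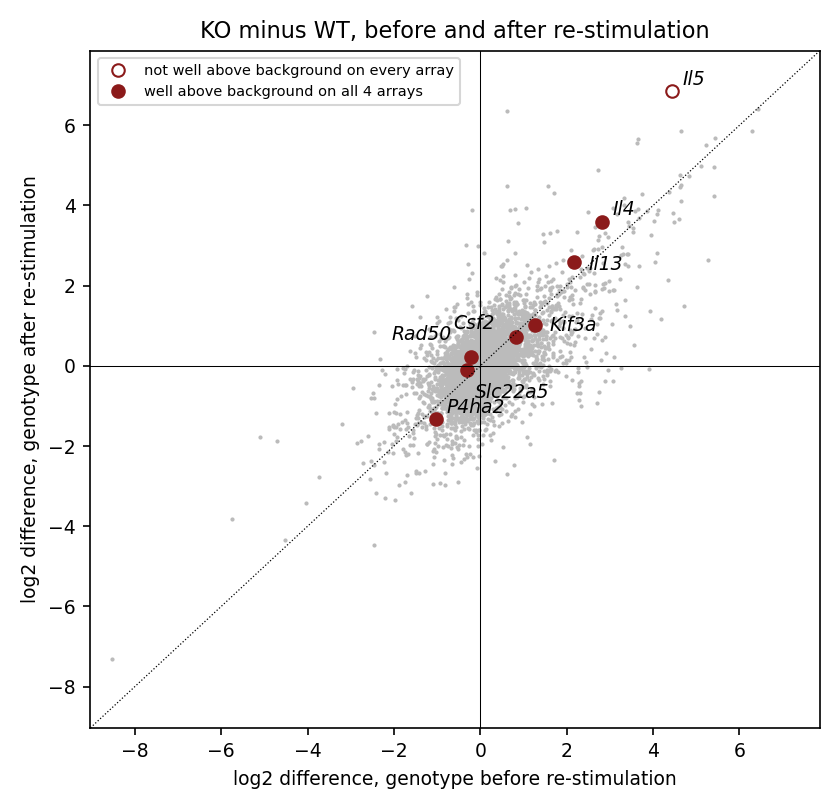
Log2 difference between Bach2 KO and WT before (horizontal axis) and after re-stimulation (vertical axis) for the named genes with a value in both, grey points, which include bounds. The dotted line marks equal differences, and the 8 genes of the locus with both values are labelled. Il5 (4.45, a bound, and 6.86), Il4 (2.81 and 3.59) and Il13 (2.16 and 2.59) lie to the upper right, P4ha2 lies to the lower left, and Il3 has no value before re-stimulation.

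Csf2 and Il3, the pair of cytokine genes farther along the chromosome, did not pass 2-fold between genotypes. Csf2 encodes GM-CSF, which acts on myeloid cells. Its probe (NM_009969) gave 343 in WT and 601 in Bach2 KO cells before re-stimulation, then 65138 and 120691 after it. The Bach2 KO array was higher at both times, with log2 differences of 0.82 (1.76-fold) and 0.72 (1.64-fold), and 6.63% and 8.28% of genes were as high. With 10 spots per array the SE over spots was 0.023 and 0.028, and the difference between any spot of one genotype and any of the other ran from 0.64 to 0.98 before and from 0.48 to 0.88 after re-stimulation.

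**Figure D3:**
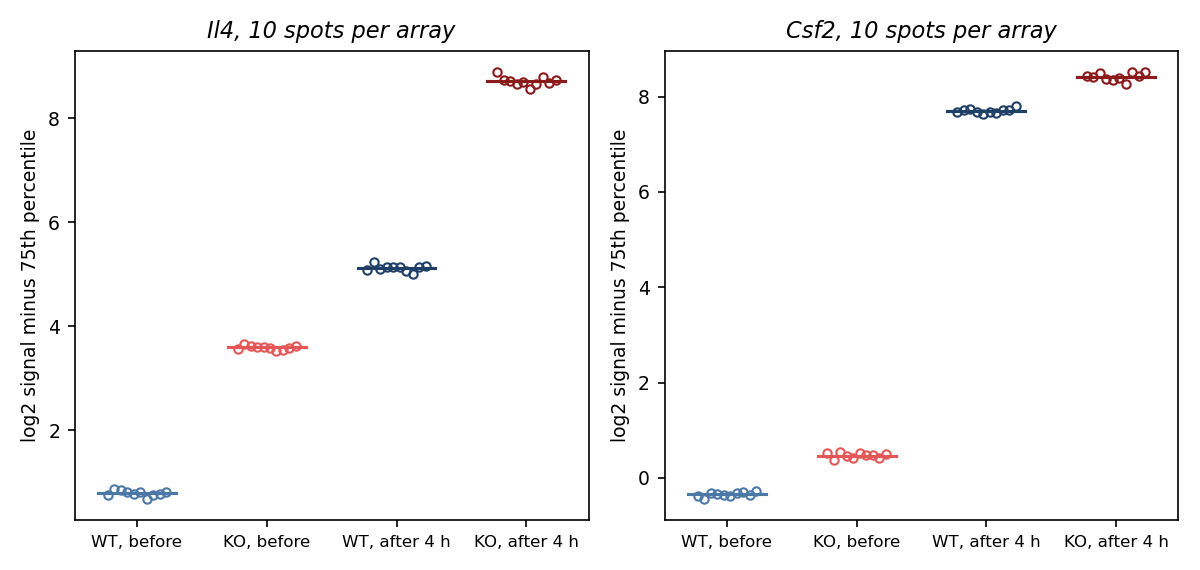
Scaled log2 signal (log2 signal minus the 75th percentile of the array) of the 10 spots of the Il4 probe (left) and the Csf2 probe (right) on each of the 4 arrays. Open circles are single spots and lines are their means. The spots of each array form a narrow band, and for Csf2 the gap between genotypes (0.82 before and 0.72 after re-stimulation) is far smaller than the gap between time points (8.05 in WT).

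Il3 encodes a growth factor of haematopoietic progenitors, mast cells and basophils. Its probe (NM_010556) was not well above background in WT or Bach2 KO cells before re-stimulation, at 4.28 and 3.42, and gave 191531 and 241779 after it. The genotypes could be compared only after re-stimulation, where the log2 difference was 0.16 (1.12-fold) and 32.7% of genes were as high. No difference was detectable before it, since both signals lay under the limit.

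Re-stimulation was followed by higher signals of the cytokine genes in both genotypes. In WT cells 4 of the 9 genes were higher past 2-fold, Il3, Csf2, Il4 and Il13, against 13.3% of 12244 genes, and 1 was lower, Rad50, against 13.7%. In Bach2 KO cells 5 of the 9 were higher past 2-fold, all 5 cytokine genes, against 12.5% of 12282 genes, and 1 was lower, Kif3a, against 13.1%. P4ha2 in Bach2 KO cells was lower by a log2 difference just short of -1. The numbers of genes of the locus below -1 changed with scaling, from 0 to 3 in each genotype, whereas the signs did not.

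With this scaling Il3 gave the highest difference of all genes in both genotypes, at least 17675-fold in WT and at least 17733-fold in Bach2 KO cells. These bounds hold only for the background treatment used here. Across the alternatives the log2 difference of Il3 ran from 11.5 to 15.9 in WT and from 11.9 to 16.4 in Bach2 KO cells. Csf2 was 265-fold higher after re-stimulation in WT and 247-fold in Bach2 KO cells, log2 differences of 8.05 and 7.95 with an SE over spots of 0.021 and 0.030. In WT cells 21 genes and in Bach2 KO cells 15 genes were as far, Csf2 included. For both genes the difference between time points far exceeded that between genotypes.

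Il4 was 20.2-fold higher after re-stimulation in WT and 34.8-fold in Bach2 KO cells, log2 differences of 4.34 and 5.12. Il13 was 22.3-fold and 30.1-fold higher, log2 differences of 4.48 and 4.91. Il5 was at least 1.55-fold higher in WT cells, where it was not measured before, and 8.24-fold higher in Bach2 KO cells. The WT bound rests on a signal near the limit and on this scaling. Across the alternatives the WT log2 difference of Il5 ran from 0.20 to 2.28. For Il4 and Il13 a genotype difference past 2-fold was present before re-stimulation, and signals in both genotypes were higher after it.

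The re-stimulation difference in Bach2 KO cells minus that in WT cells was 0.79 for Il4, and 7.92% of the 10810 genes measured on all 4 arrays were as far from 0. It was 0.43 for Il13 (21.9%), -0.10 for Csf2 (70.5%), 0.45 for Rad50 (20.3%), -0.25 for Kif3a (41.2%), 0.20 for Slc22a5 (48.2%) and -0.31 for P4ha2 (32.8%). The 5th and 95th percentiles over all these genes were -0.74 and 0.66, so only Il4 of the 7 genes lay outside them. Il3 and Il5 rest on bounds and have no such value.

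**Figure D4:**
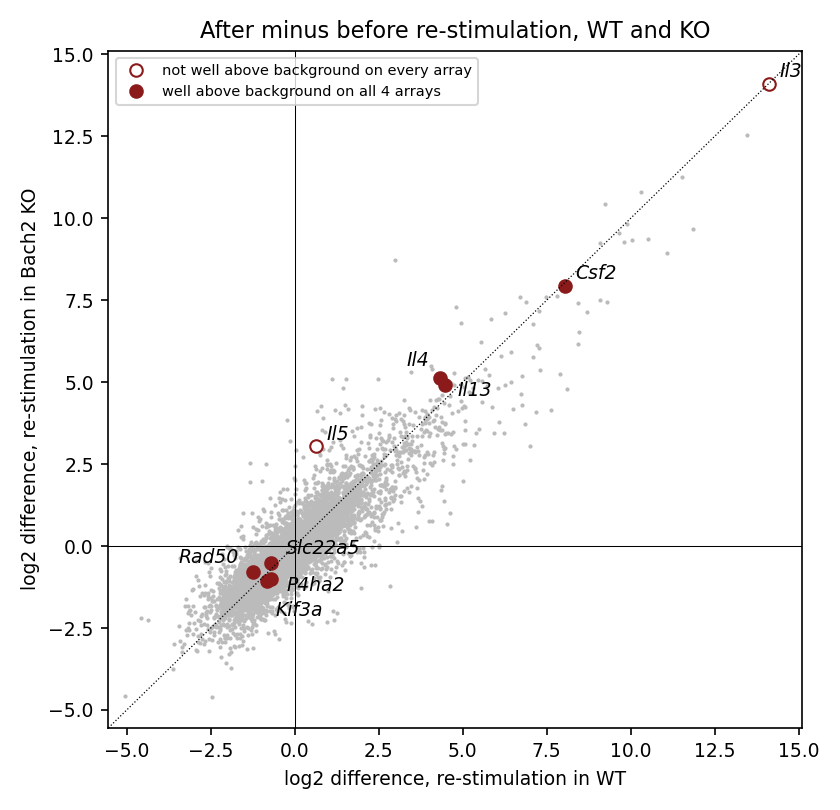
Log2 difference after minus before re-stimulation in WT (horizontal axis) and Bach2 KO cells (vertical axis) for the named genes with a value in both, grey points, which include bounds. The dotted line marks equal differences, and all 9 genes are labelled. Il3 (bounds of 14.11 in both) and Csf2 (8.05 and 7.95) lie near the line far to the upper right, Il4, Il13 and Il5 lie above the line, and the 4 linked genes lie below 0 on both axes.

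The 4 linked genes have other functions. Kif3a encodes a motor subunit of kinesin-2, which carries cargo along microtubules and into cilia. Its brighter probe (NM_008443) gave 412 in WT and 984 in Bach2 KO cells before re-stimulation, then 168 and 383 after it. The Bach2 KO array was higher at both times, with log2 differences of 1.26 and 1.01, just past the rule, and 3.63% and 5.10% of genes were as high. The second probe gave 294, 590, 93.3 and 180 on the same arrays in the same order, and differences of 1.01 and 0.77. After re-stimulation both probes were lower in both genotypes, by -0.81 in WT and -1.06 in Bach2 KO cells for the brighter one.

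Rad50 encodes a subunit of the MRN complex, which binds DNA breaks. Its probe (NM_009012) gave 820 in WT and 698 in Bach2 KO cells before re-stimulation, then 250 and 330 after it. The log2 difference between genotypes was -0.23 before and 0.23 after re-stimulation, and 21.7% of genes were as low before and 27.1% as high after it. After re-stimulation its signal was lower in both genotypes, by log2 differences of -1.24 in WT and -0.78 in Bach2 KO cells. The difference of Rad50 was thus 0.23 in size at each time, while Il4, Il13 and Il5 around it differed by at least 2.16.

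Slc22a5 encodes OCTN2, a carnitine transporter. Its brighter probe (NM_011396) gave 309 in WT and 247 in Bach2 KO cells before re-stimulation, then 135 and 141 after it. The log2 differences between genotypes were -0.32 and -0.11, and the latter turned to 0.14 when the probes of the gene were averaged. The second probe gave 77.3, 68.5, 38.7 and 57.1, and its difference after re-stimulation was 0.39, so the probes disagreed in sign there.

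P4ha2 encodes a catalytic subunit of prolyl 4-hydroxylase, an enzyme that modifies collagen. Its probe (NM_011031) gave 7201 in WT and 3528 in Bach2 KO cells before re-stimulation, then 3198 and 1433 after it. The WT array was higher at both times, with log2 differences of -1.02 (2.03-fold lower in Bach2 KO) and -1.33 (2.52-fold lower), and 2.72% and 2.15% of genes were as low. When the arrays were scaled to the Cd3e probe the difference before re-stimulation was -0.89 and no longer past 2-fold.

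Profiles over the 4 arrays were compared by the root mean square distance of log2 values, each gene centred on its own mean, among 10810 genes measured on all 4 arrays. Of the other genes, Il13 was the nearest to Il4, at 0.42, followed by Havcr2 at 0.62, which encodes the T cell surface receptor TIM-3, and Chst11 at 0.72, which encodes a chondroitin sulfotransferase. Il4 was in turn the nearest to Il13, with Chst11 at 0.43 and Havcr2 at 0.44 close behind. Both relations held when probes were averaged. With quantile normalization Chst11 was nearer to Il13 than Il4 was, and with normexp Il4 ranked 98th for Il13 at 0.97 and Il13 ranked 6th for Il4. The nearest genes to Csf2 were Rgs16 at 0.32, a regulator of G protein signalling, Ifng at 0.48, which encodes interferon-γ, and Pdzk1ip1 at 0.51. The distance of Csf2 from Il4 was 2.05 and from Il13 1.84. For the linked genes the nearest were Relt, Acads and B3gat3 (Rad50), Tmem159, Nedd4 and Tle6 (Kif3a), Ubac1, Rhbdl1 and Blm (Slc22a5), and Rsph9, Olfml3 and Frat2 (P4ha2), at 0.019 to 0.114. These are distances over 4 values and say nothing of shared control.

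The 18 wider neighbours on the chromosome gave a background for position. Before re-stimulation 14 were measured, of which 2 were higher in Bach2 KO cells past 2-fold and 2 were lower, with a median log2 difference of 0.25. After it 13 were measured, 0 were higher and 3 were lower, with a median of -0.34. The median over all genes was -0.00 before and 0.02 after re-stimulation. Of all genes, 5.27% were higher and 2.83% lower past 2-fold before, and 5.17% and 3.86% after.

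Those past the rule lay on both sides of the cytokine genes. Pdlim4, which encodes a PDZ and LIM domain protein and lies beside P4ha2, gave 21537 in WT and 5481 in Bach2 KO cells before re-stimulation, then 8372 and 926, so that the log2 difference was -1.97 before and -3.35 after it. Acsl6, which encodes an acyl-CoA synthetase and lies beyond Il3, gave 154 in WT and 5.28 in Bach2 KO cells before re-stimulation, the latter not well above background, and 397 and 164 after it. Its log2 difference was -3.19 or lower before and -1.45 after re-stimulation. Irf1, an interferon-responsive transcription factor gene beside Il5, gave 13437, 24361, 26456 and 14158 in the order WT and Bach2 KO before, WT and Bach2 KO after, so the genotype difference turned from 0.87 to -1.08. Aff4, a subunit gene of a transcription elongation complex, differed by 1.32 before and 0.60 after re-stimulation, and Shroom1 by at least 1.53 before it. With normexp the differences before re-stimulation were 0.98 for Aff4 and 0.31 for Shroom1, so 0 neighbours were higher past 2-fold, and Acsl6 was at -1.24. With Cd3e scaling Irf1 was at -0.98 after re-stimulation, short of 2-fold.

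**Figure D5:**
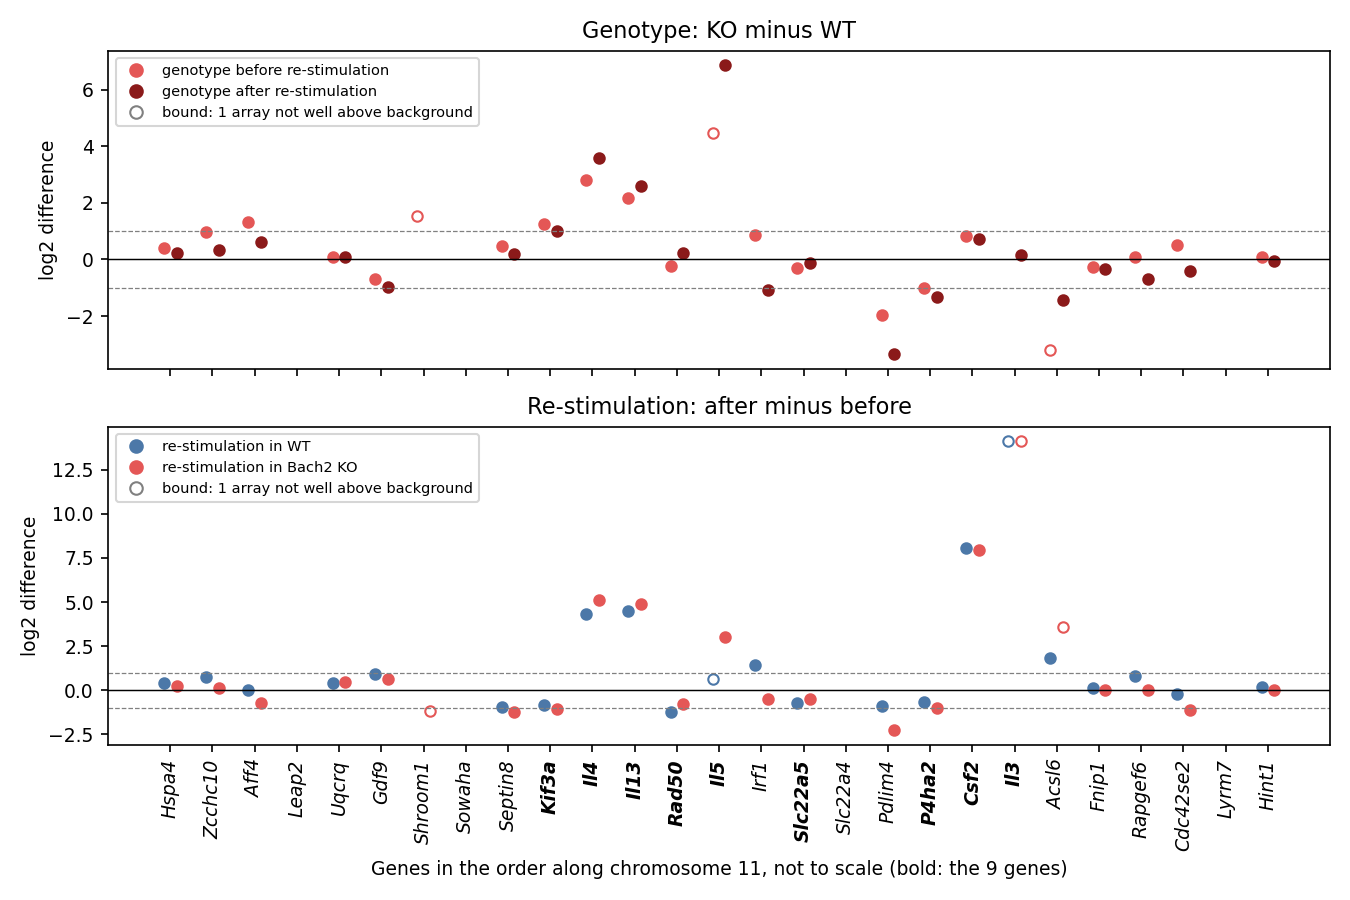
Log2 differences between genotypes (top) and between time points (bottom) for the 9 genes, bold, and their wider neighbours in their order along the chromosome, not to scale. Open points are bounds, dashed lines mark 2-fold, and a gene without points was not measured. Il4, Il13 and Il5 stand above their surroundings in the top panel with Rad50 near 0 between them, and Pdlim4 and P4ha2 stand together below 0.

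Factors known to activate the locus were read from a list of 20 genes, 19 of them measured. Before re-stimulation 5 were higher in Bach2 KO cells past 2-fold and 1 was lower, with a median log2 difference of 0.49. After re-stimulation 3 were higher and 1 was lower, with a median of 0.15. Of all genes, 5.27% were higher and 2.83% lower before, and 5.17% and 3.86% after. Maf, a transactivator of Il4, gave 57.2 in WT and 1432 in Bach2 KO cells before and 123 and 2391 after re-stimulation, log2 differences of 4.65 and 4.10. Gata3, the master regulator of the Th2 lineage, gave 5812 and 16740 before and 7569 and 15319 after, differences of 1.53 and 0.84. Batf3 differed by 1.77 and 1.75, and Batf, the AP-1 factor studied with Bach2, by 0.49 before and 1.26 after re-stimulation. Irf4, whose product the paper pairs with Batf, differed by 0.73 and -0.35, Junb by 0.69 and 0.37 and Jund by 0.14 and 0.15. None of these last genes passed 2-fold. Rbpj, the DNA-binding partner of Notch, differed by 2 and 0.58, and Nfil3 by 1.41 and 0.46. Tcf7, which encodes TCF-1, was the gene that was lower, by -1.57 and -1.99. Maf and Batf3 thus passed 2-fold at both times, Gata3, Rbpj and Nfil3 only before and Batf only after re-stimulation.

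Of 7 factors known to restrain the locus, all were measured and 0 were higher past 2-fold at either time. The share of all genes was 5.27% before and 5.17% after re-stimulation. Foxp3 gave 50.8 in WT and was not well above background in Bach2 KO cells before re-stimulation, a log2 difference of -1.59 or lower, which was -0.48 with normexp and no longer past 2-fold. The medians were -0.26 and -0.04. Bach2 itself (NM_001109661) gave 2932 in WT and 2633 in Bach2 KO cells before and 3310 and 3080 after re-stimulation, differences of -0.15 and -0.28. Which exons the floxed allele removes, and whether this probe reads them, was not given in the sources used here, so the genotype labels could not be checked with it.

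Receptors for the cytokines of the locus were read from a list of 9 genes. Of these, 2 were higher in Bach2 KO cells past 2-fold at both times, with 6 measured before and 7 after re-stimulation. Both of the 2 entered only through the Bach2 KO arrays, so this count leans to the higher side. The share of all genes was 5.27% before and 5.17% after. Csf2rb, the common β chain of the IL-3, IL-5 and GM-CSF receptors, gave 10.4 and 12.1 in WT cells, not well above background, and 179 and 240 in Bach2 KO cells, log2 bounds of 3.57 before and 3.87 after re-stimulation. Csf2rb2, its near copy in the mouse, gave bounds of 3.08 and 3.93, and the probes may not separate the pair. With normexp the values were 1.57 and 1.99 for Csf2rb and 1.11 and 1.98 for Csf2rb2. The partner chains Il3ra and Csf2ra differed by 0.35 and 0.54 before and 0.40 and 0.50 after re-stimulation. Il4ra gave 32514 in WT and 39695 in Bach2 KO cells before and 20187 and 14018 after re-stimulation, differences of 0.29 and -0.70, and Il2rg differed by 0.14 and 0.12. Il5ra and Il13ra2 stayed at background on all arrays, and Il13ra1 was well above it in Bach2 KO cells after re-stimulation alone, at 28.2.

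Th2-associated genes outside the locus were a list of 11. Before re-stimulation 6 of 9 measured were higher in Bach2 KO cells past 2-fold, and after it 7 of 10, with medians of 1.08 and 2.07 and none lower past 2-fold. Il10, Ccr3 and Il31 before and Il9 after re-stimulation entered only through the Bach2 KO array. These counts and medians therefore lean to the higher side. The share of all genes that were higher was 5.27% before and 5.17% after, here and for the cytokines below. With normexp 4 of 9 and 7 of 10 were higher, with medians of 0.60 and 1.36. Il24 differed by 5.23 and 5.5, Il10 by at least 4.65 (2.32 with normexp) and by 5.85, and Il1rl1, the IL-33 receptor, by 4.71 and 1.5. Of cytokines outside the locus, 9 had a named probe. Before re-stimulation 1 of 6 measured was higher past 2-fold, Ifng at 1.75, and after it 4 of 9, Il6 at 6.36, Il21 at 4.15, Il22 at 3.61 and Il17a at 2.10 or higher. Il17a entered only through the Bach2 KO array. With normexp Il21 was at 2.37, Il22 at 1.98 and Il17a at 0.93, which left 3 of 9. Genes of the TCR response were a list of 13, of which 12 were higher past 2-fold after re-stimulation in each genotype, with medians of 4.02 in WT and 2.84 in Bach2 KO cells. Of all genes, 13.3% in WT and 12.5% in Bach2 KO cells were so.

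Some markers of other cells differed between genotypes past 2-fold, and others did not. Mast cells and basophils are also sources of IL-4 and IL-13 and respond to IL-3. The CD4+CD62L+ isolation kit named in the labels is meant to leave such cells out at the start of culture. Kit and Tpsab1 had no probe named by accession and were not read. Of 12 of their markers with a named probe, 3 and 2 were well above background in WT cells before and after re-stimulation and 8 and 8 in Bach2 KO cells. The summed signal of the 12 was 258 and 494 in WT and 1522 and 2148 in Bach2 KO cells. In the order WT and Bach2 KO before, WT and Bach2 KO after, Hdc gave 128, 230, 260 and 849. Cd200r3 gave 41.7, 55.2, 163 and 233 in the same order and differed between genotypes by 0.41 and 0.34. In WT cells the sums rest mostly on these 2 genes, and no sum is a level of a cell type. Of 8 measured on 1 or both arrays, 5 were higher in Bach2 KO cells past 2-fold before and 6 after re-stimulation, with medians of 2.73 and 2.79. Of all genes, 5.27% and 5.17% were higher past 2-fold. Cpa3, Mcpt8, Fcer1a, Gata2 and Cma1 were not well above background in WT cells. Their differences are bounds, and they enter only through the Bach2 KO arrays. A marker at background on both arrays has no value, so these counts and medians lean to the higher side. With normexp 4 and 5 were higher, with medians of 1.13 and 1.53. Cpa3 gave 339 and 195, Mcpt8 309 and 333 and Prss34 293 and 244 in Bach2 KO cells before and after, while in WT cells only Prss34 before re-stimulation, at 32.8, was well above background. No array had Ms4a2, Mcpt1, Mcpt4 or Tpsb2 well above background. The part of such cells in the Il4, Il5 and Il13 differences was not tested, and in bulk RNA more cells of a type and more RNA per cell cannot be told apart.

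All 10 T cell identity genes were well above background on all 4 arrays and 0 passed 2-fold between genotypes, with medians of -0.08 before and 0.09 after re-stimulation. Cd3e gave 1401 and 1268 before and 818 and 863 after re-stimulation in WT and Bach2 KO cells. The sign of the median before re-stimulation turned when the arrays were scaled to Cd3e. Of 5 eosinophil markers, Prg2 was measured in Bach2 KO cells only, at 53.3 and 36.2, Siglecf only after re-stimulation, at 134 in WT and 140 in Bach2 KO cells, and Epx on no array. Of the CD8 T cell markers only Cd8a had a probe named by accession, and it was measured in Bach2 KO cells after re-stimulation at 63.0. Only 66.7% of probes were named, so Cd8b1 may have had a probe that was not read. Summed signals over 5 NK cell markers were 641, 1318, 1212 and 1294 in the order WT and Bach2 KO before, WT and Bach2 KO after, and over 5 B cell markers 566, 599, 156 and 204. In the same order, Eomes alone gave 283, 860, 1039 and 1096, and Cd79b alone 525, 539, 97.4 and 135. Ncr1, Klra4, Cd79a, Ms4a1 and Pax5 were at background on all arrays. Over 6 myeloid markers the sums were 235, 526, 94.8 and 254, with Lyz2 at background on all arrays and Adgre1 alone at 185, 410, 48.2 and 160. Each sum thus rests mostly on 1 or 2 genes and is not a level of a cell type. The part of these cells in the results was not tested.

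All samples are labelled female, while 3 of 4 Y-linked genes were well above background on both Bach2 KO arrays and on neither WT array, Eif2s3y at 1185 and 951. Xist, measured on all arrays, gave 9524 in WT and 4623 in Bach2 KO cells before re-stimulation, then 5221 and 2585 after it. Its log2 difference was -1.04 before and -1.19 after re-stimulation, and all 4 Xist probes were lower in Bach2 KO cells at both times. Xist and Y-linked transcripts were thus both present in the Bach2 KO RNA. Whether these cultures held cells of both sexes was not tested. Y-linked transcripts in the Bach2 KO cultures go against the label, while the methods state that cultures were made from mice of either sex. In these 4 arrays genotype and sex of the mice cannot be told apart for any of the 9 genes.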

How the data were processed

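Total RNA (500 ng) of 4 cultures was labelled with Cy3 and hybridised to Agilent whole mouse genome arrays, 1 array per group, and groups were taken from the sample labels. The files of the scanner software (Feature Extraction 10.7.3.1) were deposited and give each spot its intensity, corrected by that software for background, with flags for outlier, saturated and well-above-background spots. A second deposited table, normalized by the authors, holds log2 values. These equalled the logged intensity less the array's 75th percentile, within 0.01 for 41001 to 41026 of 41173 probes, with column medians of -4.09, -4.03, -3.80 and -3.77, and which were not centred per gene.

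Outlier spots (107 to 120 per array) were left out, the log2 signals of a probe's spots were averaged, and each array's 75th percentile was subtracted. Probes were named by matching their transcript accession to the RefSeq table of GRCm38.p6, which named 27479 (66.7%) of them. A gene with several probes (6641 of 18749) was represented by its brightest probe on average. A gene entered a comparison where 1 or both of its arrays had it well above background. Since the number of arrays limits the precision, no test was made. The scripts were tested on simulated data. All 9 genes are named, with the 3 nearest genes of each that was measured on all arrays, up to 4 genes past 2-fold of each list, and Bach2, Gata3, Cd3e and markers of other cells. Further genes of the lists (Irf1, Batf, Irf4, Junb, Jund, the receptors, Cd8a) are named with their values beyond that rule and were chosen after their values were seen. The genes and lists were chosen with earlier results of these data known. Alternatives were median, quantile and Cd3e scaling, the 75th percentile of measured probes, normexp with an offset of 50, the second table of the authors, averaged probes, 2 other filters and a 3-fold rule. Scaling and normexp were applied to the gene lists, and to the nearest genes of Il4 and Il13, after seeing the data. Python 3.11.15, numpy 2.4.6, pandas 2.3.3, R 4.3.3 and limma 3.58.1 were used.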

Additional observations from a re-analysis of the deposited data

Results flagged for a closer look

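In 5 cases a difference had opposite signs in the 2 contrasts set side by side, each of 1 array against 1, and the difference between the contrasts was not tested. For Rad50, among the Th2 cytokine genes, the genotype difference was -0.23 before and 0.23 after re-stimulation, a change of 0.45. For Irf1, beside Il5, it was 0.87 before and -1.08 after, a change of -1.94, and the re-stimulation difference was 1.46 in WT and -0.48 in Bach2 KO cells, again -1.94 apart. For Cdc42se2 the genotype difference was 0.51 before and -0.39 after, a change of -0.90. For Il4ra it was 0.29 before and -0.70 after, a change of -0.99.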

How the results depend on the processing

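No paired analysis was possible because each condition has 1 array and the labels give no replicate numbers, and for the same reason no replicate could be left out. Of 311 values of the 9 genes under the alternatives, 227 stayed within 1 median SD between probes, 84 moved further, and no difference past 2-fold changed sign. Part of the 227 could not move. The second table of the authors nearly equals the main values, and the 2 other filters leave any difference measured on both arrays unchanged. Averaging affects only Kif3a and Slc22a5, which have a second probe. The count of 227 is thus not a measure of stability. Before re-stimulation the genotype difference of Csf2 was 0.95 with Cd3e scaling and 0.69 with normexp, that of Il4 2.94 and 2.68, that of Il13 2.30 and 0.84, and that of Il5 4.59 and 2.34. Quantile normalization gave 2.01 for Il13 and 4.20 for Il5, and no floor gave 6.10 for Il5. After re-stimulation Il3 was 0.30 with quantile normalization and 0.32 with normexp, Il5 was 6.99 and 4.93, and Il13 was 2.45 with normexp. Cd3e scaling put 0 of the 9 genes lower past 2-fold in Bach2 KO before re-stimulation, 0 lower after re-stimulation in WT and 0 in Bach2 KO. The 3-fold rule put 0 lower in all 4 comparisons. Median scaling put 3 genes lower after re-stimulation in WT and 3 in Bach2 KO, and quantile normalization put 2 lower in Bach2 KO. The median over all genes was 0.14 and 0.11 between genotypes and 0.29 and 0.26 between time points with Cd3e scaling, and -0.30 and -0.26 between time points with median scaling. Of all genes past 2-fold after re-stimulation, 49.3% were higher in WT and 48.9% in Bach2 KO, against 29.1% and 30.8% with median scaling and 71.5% and 67.7% with Cd3e scaling. Of those past 2-fold between genotypes before re-stimulation 65.1% were higher, against 74.2% with Cd3e scaling. Signals near background limit the sizes for Il5, Il3 and Il13, and when both arrays had to be well above background, Il5 had no genotype value before re-stimulation and Il3 no re-stimulation value.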
